A study of Macaca mulatta with 12 samples.

Results

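Protein tyrosine phosphatases were measured in female rhesus macaques, in the dorsal raphe, a serotonin-producing nucleus of the midbrain. Members were chosen by gene symbol. They are the probe sets of a human Affymetrix array whose only gene symbol starts with PTPN (non-receptor phosphatases), PTPR (receptor-type phosphatases), PTP4A (prenylated phosphatases) or DUSP (dual-specificity phosphatases). The 3 probe sets of the leukocyte antigen PTPRC and the 1 of PTPRCAP, which is no phosphatase, were left out. This gave 79 probe sets of 46 genes among 12625 probe sets on the array. By class there were 27 probe sets of 15 PTPN genes, 29 of 16 PTPR genes, 6 of 3 PTP4A genes and 17 of 12 DUSP genes.

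The 12 arrays fall into 4 groups of 3 monkeys, with 1 array per monkey. The groups received placebo, estrogen, progesterone, or estrogen and progesterone together, from Silastic capsules left under the skin for 1 month. The placebo arrays carry the code OVX, for ovariectomy, and the study compares ovarian steroids given back to animals without ovaries. Ages and doses are not given in the labels. The progesterone arrays are titled as progesterone but carry the codes of the combined group there, so their group was taken from the source names P1 to P3. The tissue is a dissected nucleus with many cell types, and in such samples fewer cells of a type and less RNA per cell cannot be told apart.

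Protein tyrosine phosphatases remove phosphate from tyrosine and thereby set the strength and length of signals that kinases start. Receptor-type members cross the membrane, and many of them carry cell-adhesion domains outside. Those related to LAR (PTPRS, PTPRD and PTPRF) organise synapses and steer growing axons. Non-receptor members act inside the cell on insulin, leptin, cytokine and glutamate signalling, and dual-specificity members switch off MAP kinases. Progesterone and estrogen receptors are themselves linked to kinase signalling at the membrane in neurons.

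Intensities are given as deposited, in array units on a linear scale. A log2 change is the difference of group means on a normalised log2 scale with an offset of 8.26, given with its standard error from limma. The offset makes changes of dim probe sets look smaller. Human probes were read with macaque RNA, so levels of different probe sets were not compared as amounts of RNA. Where a probe set is called brighter or dimmer, only its signal is meant. Sums over marker probe sets are weighted towards the brightest of them. The serotonin transporter SLC6A4, which marks serotonin neurons, read 220 to 495 over the 12 arrays, and the serotonin transcription factor FEV read 104 to 289. The first array of the estrogen group and the first of the both-hormone group differed from the other 10. Their 28S ribosomal RNA control read 841 and 1354, where the others read 64.2 to 179. GAPDH probes from the 3' end gave 2.46 and 2.05 times the signal of those from the 5' end, where the others gave 0.892 to 1.46. Where dropping both of them moved a named comparison of 2 groups by over 1.5 times, or carried it past the threshold, the value without them is given.

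Of the 79 probe sets, 55 passed the filter on low mean signal, covering 37 of the 46 genes. No phosphatase probe set passed limma's adjusted threshold of 0.05 in any comparison, so every difference below is a measured value and not a called change. For estrogen against placebo, 0 of 55 passed and 5 had an unadjusted p under 0.05, where limma called 0.0% and 3.16% of the 7535 tested probe sets of the array. For progesterone against placebo, 0 of 55 passed and 14 (25.5%) had an unadjusted p under 0.05, against 0.0398% and 8.24% of all tested. For both hormones against placebo, 0 passed and 1 had an unadjusted p under 0.05, against 0.0133% and 3.38% of all.

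The 14 probe sets with progesterone came from 10 genes, with 7 higher and 7 lower, where 3.92% and 4.33% of all tested probe sets were so. Higher values were read for PTPN1, PTPN3, PTPN4, PTPRR and DUSP3, and lower values for PTPRS, PTPRD, PTPRM, PTPRK and DUSP7. The family was set up with earlier results for PTPN1 and PTPN4 known. Without these 2 genes, 10 of 50 probe sets (20.0%) had an unadjusted p under 0.05. Probe sets of a gene often share a target sequence, so they are not independent of each other. Arrays did not overlap between progesterone and placebo for 11 of 55 members (20.0%), beside 16.7% of all tested probe sets. Such counts, here and below, were made on the normalised scale. When single arrays were left out, the count of 14 lay between 11 and 15. It was 15 once the pair of arrays with high ribosomal signal was dropped. Over all alternative fits it lay between 10 and 20, and the number tested changed at both ends. The 20 came with no filter, where all 79 probe sets were tested. The 10 came with the lowest 60% of probe sets by mean left out, where fewer members were tested.

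**Figure D1:**
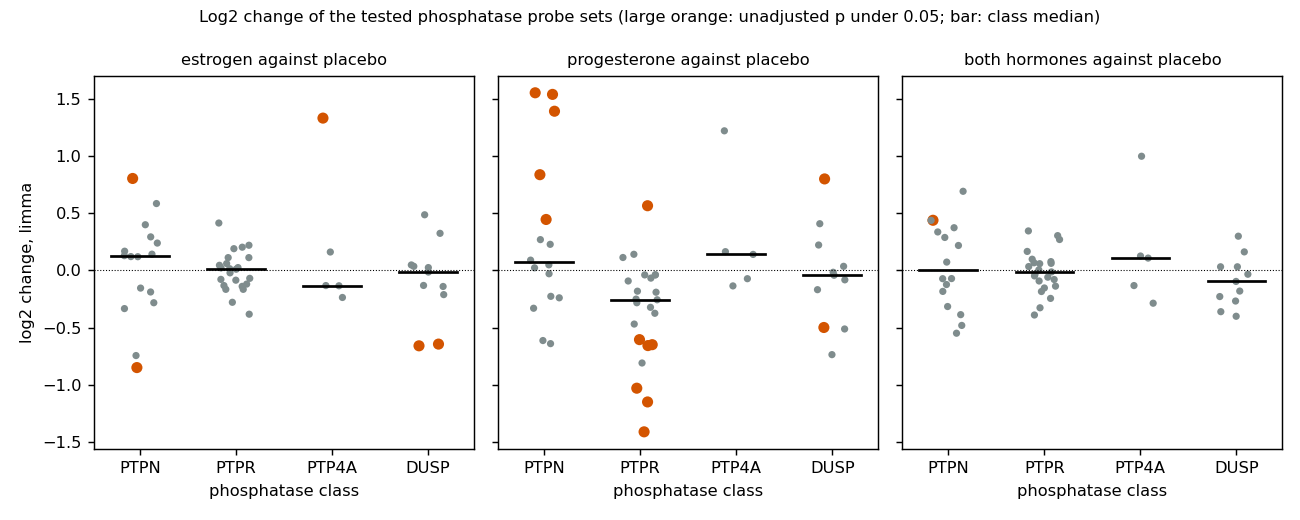
Log2 change from limma (y axis) of the 55 tested phosphatase probe sets by class (x axis), for estrogen, progesterone and both hormones against placebo. Points are probe sets, large orange points have an unadjusted p under 0.05, and bars are class medians. The PTPR median is −0.26 with progesterone, beside 0.01 with estrogen and −0.01 with both.

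Among the non-receptor phosphatases, PTPN1 had the smallest adjusted p of the family against placebo. PTPN1 dephosphorylates the insulin receptor and the leptin-receptor kinase JAK2 from the surface of the endoplasmic reticulum. Its probe set 40137_at read 61.6, 102 and 92.4 on the placebo arrays, 107, 83.3 and 90.8 with estrogen, 171, 156 and 143 with progesterone, and 102, 95.6 and 109 with both. The 3 progesterone arrays were above each of the other 9. The log2 change with progesterone was 0.84 ± 0.17 (SE, n = 3 against 3, limma adjusted p = 0.213), and the values with estrogen and with both were 0.12 and 0.22.

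A second PTPN1 probe set, 588_at, was also highest with progesterone. It read 32.8, 156 and 159 with placebo, 150, 127 and 175 with estrogen, 260, 269 and 259 with progesterone, and 90.5, 115 and 172 with both. Again every progesterone array was above every other array. Its change with progesterone was 1.39 ± 0.44 (limma adjusted p = 0.418), and 0.74 without placebo array 1, the lowest reading. The third probe set, 591_s_at, read 66.4, 112 and 107 with placebo and 47.5, 80.7 and 96.4 with progesterone, with estrogen at 55.3 to 116 and both hormones at 54.1 to 158. Its groups overlapped and its change with progesterone was −0.33 ± 0.38, so 1 of the 3 PTPN1 probe sets did not share the direction of the others.

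PTPN4, a phosphatase with FERM and PDZ domains that binds glutamate receptors in neurons, had 2 probe sets designed from 1 sequence record. The first, 1459_at, read 57.3, 46.4 and 56.8 with placebo, 120, 59.8 and 12.1 with estrogen, 217, 190 and 129 with progesterone, and 94.3, 68.4 and 76.1 with both. The second, 1460_g_at, read 66.7, 67.4 and 79.0 with placebo, 219, 128 and 78.0 with estrogen, 290, 184 and 208 with progesterone, and 157, 65.2 and 79.9 with both. On both probe sets all progesterone arrays lay above all placebo and all both-hormone arrays, while the estrogen arrays were spread widely. The changes with progesterone were 1.55 ± 0.46 and 1.54 ± 0.34 (limma adjusted p = 0.396 and 0.268). When the pair of arrays with high ribosomal signal was dropped, the second was 1.55 and passed the threshold (limma adjusted p = 0.0423), the only member to pass in that fit. With estrogen the second probe set gave 0.80 ± 0.34 (limma adjusted p = 1.0), and 0.48 without estrogen array 1 or with both high-ribosomal arrays dropped, while the first gave −0.15.

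**Figure D2:**
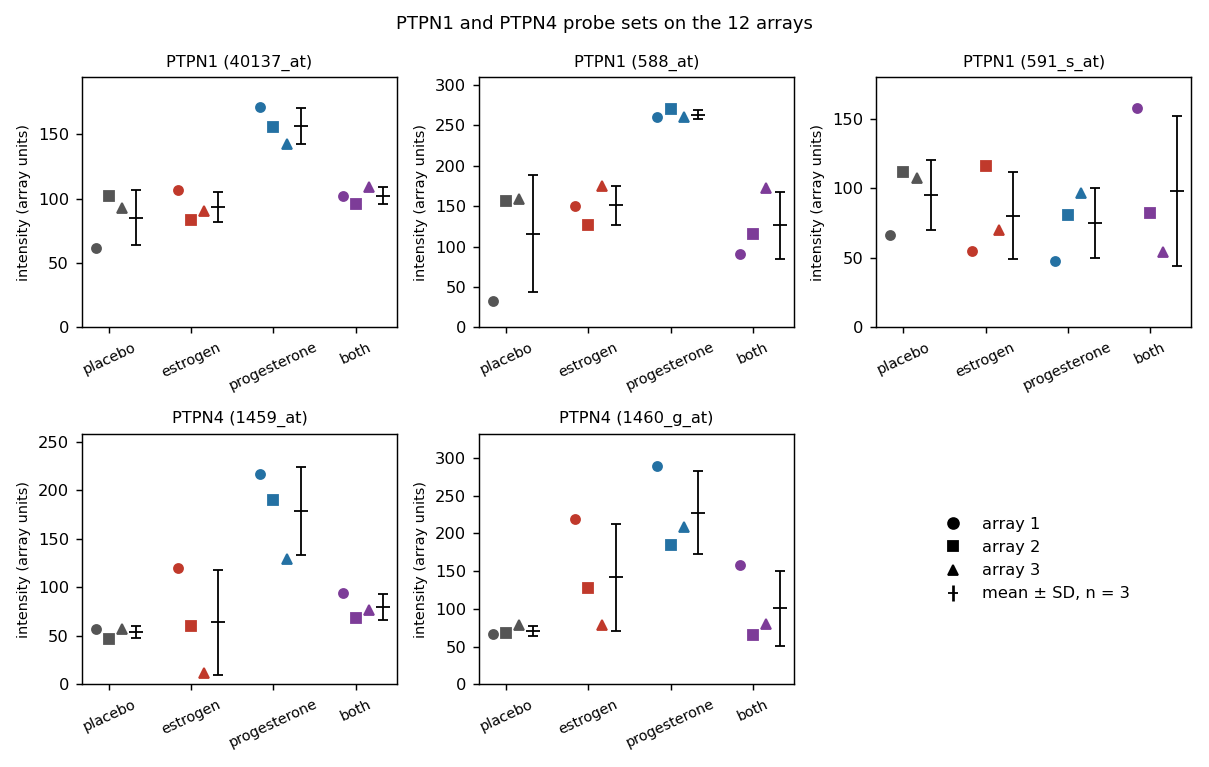
Deposited intensity in array units (y axis, from 0) of the PTPN1 and PTPN4 probe sets in the 4 groups (x axis). Coloured symbols are single arrays (circle 1, square 2, triangle 3) and black bars the mean ± SD (n = 3). Progesterone arrays are the highest of all for PTPN1 40137_at (143 to 171) and 588_at (259 to 269), but not for 591_s_at (47.5 to 96.4).

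PTPN3, the closest relative of PTPN4, read 193, 261 and 167 with placebo, 236, 280 and 242 with estrogen, 331, 232 and 278 with progesterone, and 302, 282 and 264 with both on its brighter probe set. The both-hormone arrays were above the placebo arrays, and the other groups overlapped with placebo. Its changes were 0.44 ± 0.19 with progesterone (limma adjusted p = 0.576) and 0.44 ± 0.19 with both (adjusted p = 0.999), and the latter was 0.29 without placebo array 3. It was the 1 member with an unadjusted p under 0.05 for both hormones. The dimmer PTPN3 probe set, which was not tested, read 11.5 to 38.1 with placebo and 39.7 to 74.6 with both.

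PTPN13, a large scaffold-like phosphatase with many PDZ domains, had lower means than placebo with each treatment on 1 probe set. Only the estrogen change there had an unadjusted p under 0.05 against placebo. Probe set 1629_s_at read 175, 114 and 129 with placebo, 45.4, 108 and 81.5 with estrogen, 69.5, 98.9 and 93.4 with progesterone, and 104, 120 and 74.9 with both. All placebo arrays were above all estrogen and all progesterone arrays. The change with estrogen was −0.85 ± 0.31 (limma adjusted p = 1.0). With progesterone it was −0.61 ± 0.31 (limma adjusted p = 0.665), and with both hormones −0.48 ± 0.31. The estrogen change was −0.44 with array weights, −0.47 without estrogen array 1, its lowest reading, and −0.47 without both arrays of high ribosomal RNA. The other PTPN13 probe set read 38.4 to 54.1 with placebo and 43.9 to 69.1 with estrogen, a change of 0.24 ± 0.26 with the opposite sign.

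PTPN6 and PTPN11 are the SH2-domain phosphatases, of which the first mostly dampens signalling in blood-derived cells and the second promotes signalling through RAS and ERK. PTPN6 read 59.3, 61.9 and 93.8 with placebo, 88.9, 80.1 and 72.5 with estrogen, 66.9, 100 and 98.6 with progesterone, and 56.2, 70.1 and 26.1 with both. All both-hormone arrays were below all estrogen arrays, with a change of −0.69 ± 0.27 between them (limma adjusted p = 1.0), which was −0.38 without estrogen plus progesterone array 3. Both hormones against progesterone gave PTPN6 a larger change, −0.82 ± 0.27 (limma adjusted p = 0.472), with overlapping arrays. Markers of microglia and leukocytes summed to 1495 to 1840 on the both-hormone arrays. They summed to 1665 to 1788 on the estrogen arrays and 2036 to 2299 on the progesterone arrays. Of their 10 tested probe sets, 1 was above 0 for both hormones against progesterone (median −0.46) and 4 against estrogen (median −0.07). ITGAM was the only 1 of 11 markers whose median was under the offset. The part of these cells in the PTPN6 values was not tested. PTPN11 read 1659, 1803 and 2104 with placebo, 1641, 2117 and 2145 with estrogen, 1824, 1939 and 2053 with progesterone, and 1732, 1909 and 1464 with both. Its change with progesterone was 0.05, with a 95% interval from −0.35 to 0.45. The other 2 PTPN11 probe sets were too dim to be tested.

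PTPN18, a phosphatase with a PEST region, had 2 tested probe sets that differed. On 160041_at it read 68.2, 115 and 112 with placebo, between 29.7 and 134 with estrogen, 31.0, 47.0 and 134 with progesterone, and 135, 169 and 196 with both. The both-hormone arrays were the highest, and each single-hormone group held 1 array near them. The interaction of the hormones was 2.07 ± 0.73 (limma adjusted p = 0.923), whereas it was 0.43 on 33453_at, where the groups overlapped. For PTPN2, PTPN7, PTPN9 and PTPN12 no comparison with placebo had an unadjusted p under 0.05. PTPN5, the striatum-enriched phosphatase of neurons, was not analysed here.

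The receptor-type phosphatases gave mostly lower values with progesterone alone. Of 23 tested probe sets, 20 had a log2 change below 0 and 3 above, with a median of −0.26, where 49.6% of all tested probe sets were below 0. The 23 came from 15 genes and share the same arrays, so they are not independent readings. PTPRS, PTPRD and PTPRM each had 3 probe sets below 0, and some of the 20 were near 0, such as PTPRN at −0.04. With estrogen 11 of 23 were below 0 (median 0.01), beside 50.8% of all. With both hormones 12 of 23 were (median −0.01), beside 50.6% of all. The split of 20 to 3 was the same with values as deposited and with arrays shifted to a common median. Leaving out progesterone array 2 gave 16 below 0 and 7 above, with a median of −0.12. At an unadjusted p under 0.05 there were 6 lower and 1 higher of 23, beside 4.33% lower and 3.92% higher of all tested probe sets, and none passed limma's adjusted threshold.

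PTPRS, a LAR-related receptor that binds chondroitin and heparan sulfate proteoglycans on axons, had 3 tested probe sets with like patterns. On 32289_at it read 201, 220 and 293 with placebo, 226, 266 and 188 with estrogen, 214, 77.4 and 77.1 with progesterone, and 296, 298 and 294 with both. Progesterone arrays 2 and 3 were far below every other array, while progesterone array 1 lay within the placebo range. On 1246_at the readings were 246, 181 and 198, then 211, 210 and 150, then 180, 121 and 29.6, then 234, 236 and 192, listed by group as for 32289_at. The third, 1247_g_at, was designed from the same sequence record as 1246_at and read 92.3, 170 and 247, then 154, 192 and 118, then 137, 35.3 and 33.0, then 154, 182 and 216.

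The PTPRS changes with progesterone were −1.03 ± 0.31, −1.15 ± 0.45 and −1.41 ± 0.45 (limma adjusted p = 0.396, 0.531 and 0.417). They rest on progesterone arrays 2 and 3: without array 3 they were −0.80, −0.46 and −1.10, and without array 1 they were −1.48, −1.62 and −2.01. Both hormones against progesterone gave 1.33 ± 0.31, 1.21 ± 0.45 and 1.57 ± 0.45, and here all 3 both-hormone arrays were above all 3 progesterone arrays on each probe set (limma adjusted p = 0.266, 0.527 and 0.413). Without progesterone array 1, the change of 32289_at was 1.79 and passed the threshold (limma adjusted p = 0.0180). Without progesterone array 3, that of 1246_at was 0.52.

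PTPRD, the relative of PTPRS that organises synapses from the presynaptic side, had 3 tested probe sets of which 1 separated the groups. Probe set 33910_at read 146, 140 and 185 with placebo, 133, 168 and 201 with estrogen, 92.0, 110 and 97.3 with progesterone, and 202, 164 and 136 with both. The progesterone arrays were below all other 9. The change with progesterone was −0.60 ± 0.21 (limma adjusted p = 0.504). Probe set 33911_at read 1131, 1554 and 1300 with placebo and 1156, 1220 and 1136 with progesterone, a change of −0.19 ± 0.26. Probe set 1256_at read 522 and 518 on the 2 arrays of high ribosomal signal, against 212 to 409 on the other 10, and gave −0.04 with progesterone.

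PTPRF, which is LAR itself, read 585, 643 and 490 with placebo, 487, 576 and 661 with estrogen, 453, 361 and 596 with progesterone, and 476, 537 and 611 with both. Its groups overlapped, and the change with progesterone was −0.28 ± 0.20.

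PTPRK, PTPRM and PTPRU are receptors that bind the same molecule on a neighbouring cell and associate with cadherins. PTPRK read 432, 512 and 513 with placebo, 254, 352 and 593 with estrogen, 295, 279 and 324 with progesterone, and 382, 353 and 370 with both. The placebo arrays were above all progesterone and all both-hormone arrays, with the progesterone arrays lowest of these. Its change with progesterone was −0.66 ± 0.25 (limma adjusted p = 0.529). PTPRM on 31892_at read 270, 147 and 171 with placebo, 171, 221 and 210 with estrogen, 125, 91.1 and 137 with progesterone, and 165, 234 and 160 with both. The progesterone arrays were below all other 9, with a change of −0.65 ± 0.26 (limma adjusted p = 0.531), which was −0.38 without placebo array 1. The other PTPRM probe sets gave −0.37 and −0.47, and on 995_g_at the progesterone arrays (142 to 173) were also below the placebo arrays (207 to 235). PTPRU read 148, 55.9 and 194 with progesterone and 181, 221 and 246 with placebo, −0.81 ± 0.45.

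PTPRR, a phosphatase that docks on ERK and p38 kinases in neurons, had the 1 receptor-type value with an unadjusted p under 0.05 on the higher side. Probe set 1658_g_at read 83.0, 86.9 and 83.6 with placebo, 122, 85.5 and 76.7 with estrogen, 97.7, 134 and 161 with progesterone, and 72.5, 96.2 and 85.9 with both. All progesterone arrays were above all placebo and all both-hormone arrays. The change was 0.56 ± 0.21 (limma adjusted p = 0.528). Its other probe set, 1657_at, was designed from the same sequence record and gave −0.09 ± 0.36.

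**Figure D3:**
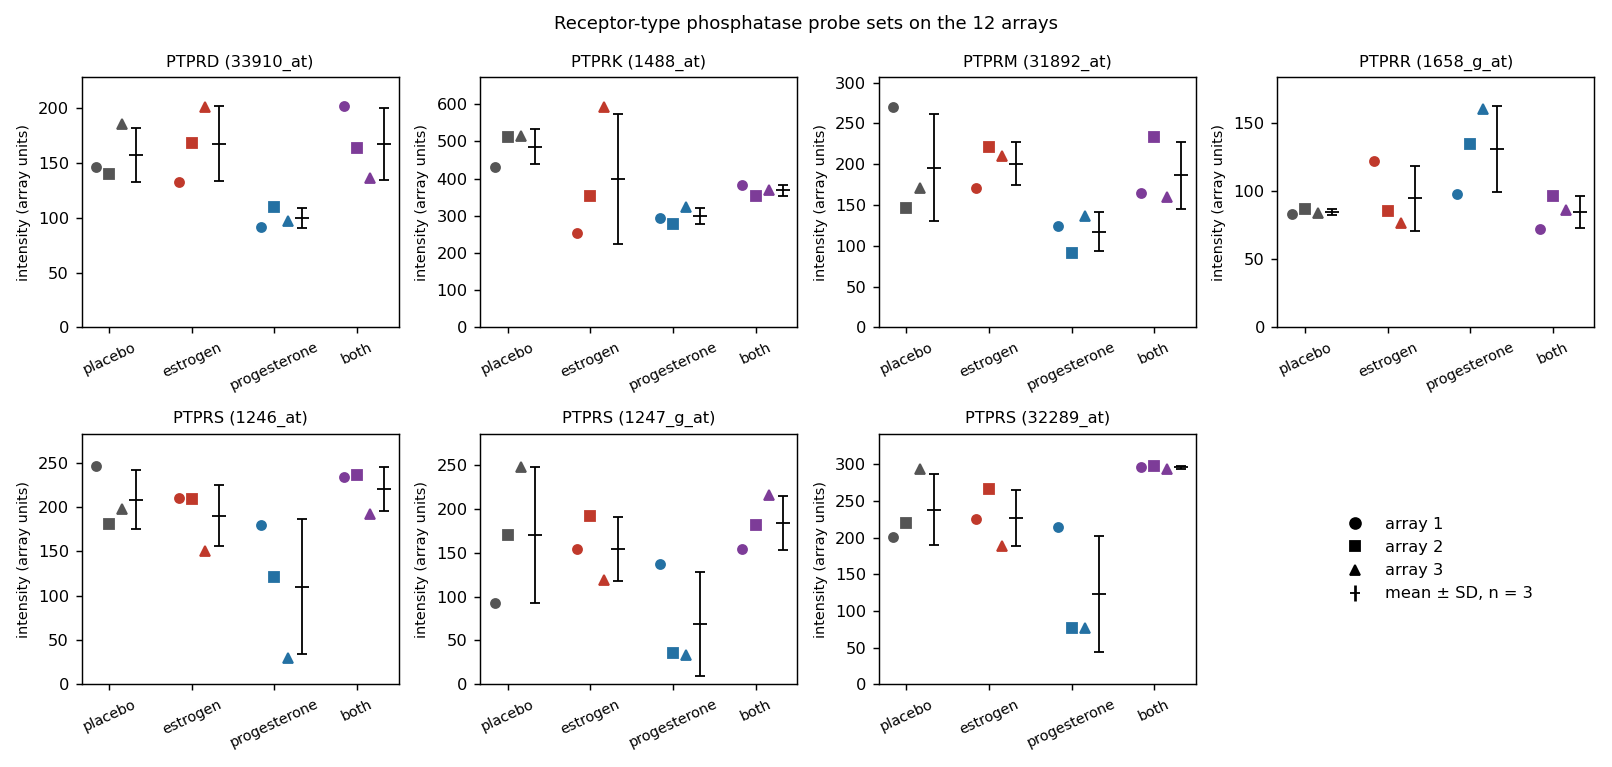
Deposited intensity in array units (y axis, from 0) of receptor-type phosphatase probe sets in the 4 groups (x axis). Shown are the 7 of 23 tested probe sets with an unadjusted limma p under 0.05 for progesterone against placebo. Coloured symbols are single arrays (circle 1, square 2, triangle 3) and black bars the mean ± SD (n = 3). For PTPRS 32289_at, progesterone arrays 2 and 3 read 77.4 and 77.1 while array 1 read 214; for PTPRD 33910_at all 3 progesterone arrays lie between 92.0 and 110.

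PTPRN and PTPRN2 are proteins of dense-core vesicles whose phosphatase domains have lost activity towards tyrosine. PTPRN gave close readings in all groups. Probe set 916_at lay between 815 and 1124 and 917_g_at between 969 and 1247 over the 12 arrays. Their changes with progesterone were −0.04 and −0.04, with 95% intervals from −0.41 to 0.33 and from −0.36 to 0.28. The log2 SD of 917_g_at over the 12 arrays was 0.10, the smallest of the tested members, whose median was 0.37 beside 0.30 for all tested probe sets. PTPRN2 read 71.0, 95.5 and 112 with placebo, 141, 86.9 and 165 with estrogen, 177, 65.4 and 90.1 with progesterone, and 73.1, 90.2 and 74.2 with both. All its groups overlapped.

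PTPRZ1, a glial receptor for pleiotrophin and midkine, read 363, 317 and 377 with placebo, 258, 563 and 378 with estrogen, 280, 244 and 343 with progesterone, and 346, 479 and 311 with both. The groups overlapped, with a change of −0.26 ± 0.27 with progesterone. Its highest readings, 563 and 479, were on estrogen array 2 and both-hormone array 2. The cerebellum markers ZIC1 (462 and 275), CALB1 (223 and 114) and CBLN1 (160 and 173) were also highest on these arrays. The marker PVALB (906 and 706) was not, and GABRA6 had a median under the offset. Whether the dissection had a part in these PTPRZ1 values was not tested. PTPRA, an activator of Src kinases, read 319, 285 and 349, then 279, 270 and 446, then 269, 244 and 397, then 275, 410 and 319, listed by group as for PTPRZ1, a change of −0.07 with progesterone. PTPRB, PTPRE, PTPRG and PTPRO had no comparison with placebo at an unadjusted p under 0.05.

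The prenylated phosphatases PTP4A1, PTP4A2 and PTP4A3 are small membrane-bound enzymes linked to cell growth. Of 5 tested probe sets, 1 had an unadjusted p under 0.05, PTP4A3 39824_at with estrogen. It read 49.8, 36.8 and 20.4 with placebo, 162, 41.7 and 143 with estrogen, 51.7, 180 and 81.9 with progesterone, and 125, 33.4 and 113 with both. Within each hormone group the 3 monkeys differed widely, and the change with estrogen was 1.33 ± 0.57 (limma adjusted p = 1.0), and 1.06 once both high-ribosomal arrays were dropped. A brighter PTP4A3 probe set read 285 to 468 with placebo and 365 to 433 with estrogen, 0.16 ± 0.22.

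Among the dual-specificity phosphatases DUSP7, DUSP1 and DUSP14 each had separated groups with an unadjusted p under 0.05. DUSP7, a cytoplasmic phosphatase of ERK, read 458, 492 and 482 with placebo, 359, 467 and 478 with estrogen, 323, 342 and 323 with progesterone, and 465, 498 and 424 with both on probe set 39932_at. The progesterone arrays were below all other 9 and close to each other, 329 ± 11.2 (SD, n = 3) against 477 ± 17.5 with placebo. The change was −0.50 ± 0.16 (limma adjusted p = 0.420). Over 22 alternatives it lay between −0.53 and −0.47, all with an unadjusted p under 0.05 and none past the adjusted threshold. The dimmer DUSP7 probe set read 45.6, 184 and 129 with placebo and 68.2, 56.2 and 55.9 with progesterone, −0.74 ± 0.47.

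DUSP1, a nuclear MAP kinase phosphatase of the immediate early class, was lowest with estrogen. It read 218, 377 and 295 with placebo, 146, 206 and 209 with estrogen, 276, 193 and 304 with progesterone, and 250, 215 and 195 with both. All estrogen arrays were below all placebo arrays, whereas the other groups overlapped with both. The change with estrogen was −0.64 ± 0.24 (limma adjusted p = 1.0), and −0.45 without estrogen array 1. DUSP14, a small phosphatase of MAP kinases, read 74.2, 91.8 and 58.4 with placebo, 41.2, 62.1 and 35.0 with estrogen, 110, 69.9 and 130 with progesterone, and 76.8, 86.0 and 73.7 with both. The both-hormone arrays were above the estrogen arrays, by 0.69 ± 0.25 (limma adjusted p = 1.0). For estrogen against placebo DUSP14 gave −0.66 ± 0.25 with 1 estrogen array inside the placebo range, and −0.53 once both high-ribosomal arrays were dropped.

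How many members stood out with estrogen depended on single arrays. The 5 members with an unadjusted p under 0.05 for estrogen against placebo were DUSP1, DUSP14, PTPN4, PTPN13 and PTP4A3. The count was 0 without estrogen array 1, 1 when both arrays with high ribosomal signal were dropped, and 2 without placebo array 1 or placebo array 2. In 3 of 55 members the estrogen arrays were all above or all below the placebo arrays on the normalised scale. The share of all tested probe sets was 6.13%. Among these members, PTPN4 1460_g_at had overlapping deposited readings, 78.0 on estrogen array 3 and 79.0 on placebo array 3.

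DUSP3, a small phosphatase of ERK and JNK, read 20.5, 76.4 and 91.8 with placebo, at most 96.4 with estrogen, 118, 91.2 and 89.0 with progesterone, and 71.3, 61.2 and 56.2 with both on 41226_at. The progesterone arrays overlapped the placebo range and the change was 0.80 ± 0.36 (limma adjusted p = 0.601). Placebo array 1, at 20.5, was the lowest of the 12 readings and lowers the placebo mean. Another DUSP3 probe set gave −0.08. DUSP6, the ERK phosphatase of the cytoplasm, read 174, 149 and 165 with placebo, 147, 113 and 200 with estrogen, 166, 207 and 200 with progesterone, and 165, 144 and 153 with both. Its progesterone arrays were above the both-hormone arrays, with a change of −0.32 ± 0.21 between them, and overlapped with the placebo arrays. DUSP4 read 2.99 to 8.84 over the 12 arrays, around or under the offset, so no difference in it was detectable here. DUSP9 on 40186_at read 624 and 521 on the 2 arrays of high ribosomal signal and 239 to 300 on the other 10.

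**Figure D4:**
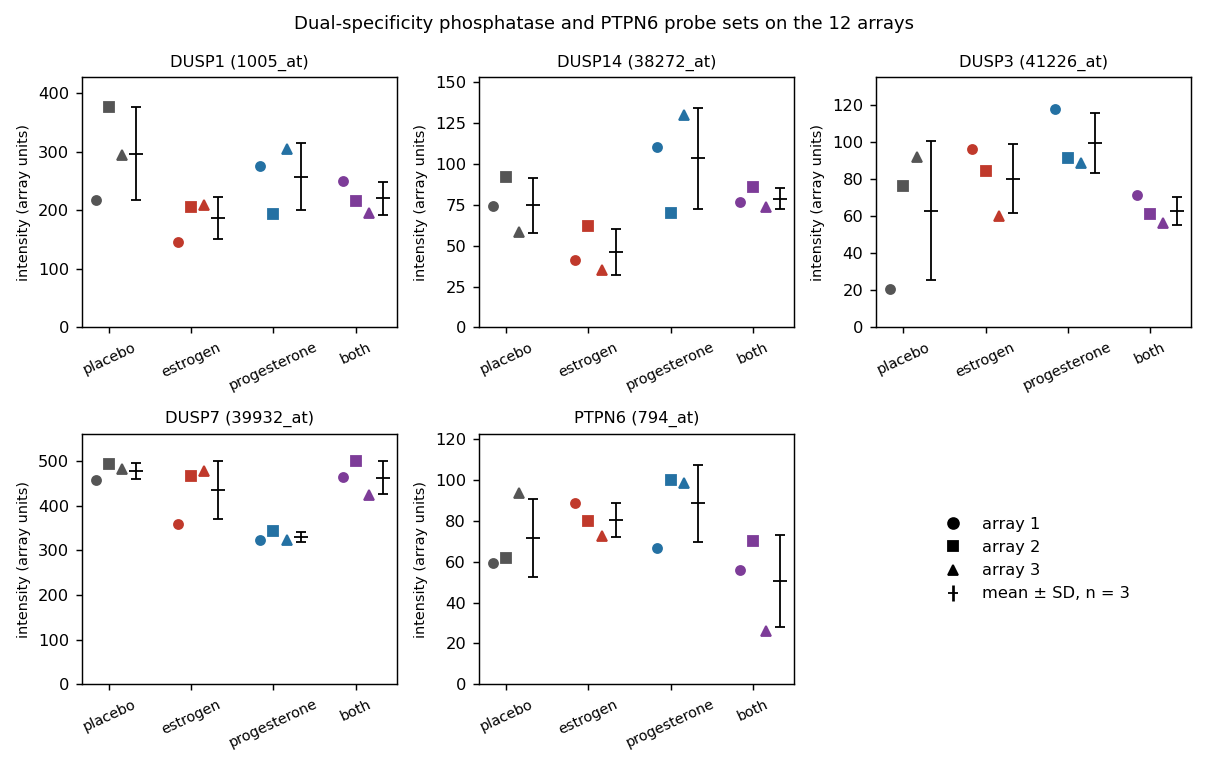
Deposited intensity in array units (y axis, from 0) of 4 dual-specificity phosphatase probe sets and PTPN6 in the 4 groups (x axis). They were chosen for an unadjusted limma p under 0.05 in a comparison of 2 groups. Coloured symbols are single arrays (circle 1, square 2, triangle 3) and black bars the mean ± SD (n = 3). For DUSP7 the progesterone arrays lie between 323 and 342, below the lowest other array at 359.

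DUSP9 and PTPRD 1256_at were part of a wider pattern. The 2 arrays of high ribosomal signal were the 2 highest of 12 for 3 tested members and the 2 lowest for 3 others, together 10.9% of the members beside 17.3% of all tested probe sets.

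The same genes were compared between both hormones and progesterone alone, the effect of adding estrogen. For both hormones against progesterone, 0 of 55 members passed limma's adjusted threshold and 13 had an unadjusted p under 0.05, against 0.0133% and 7.71% of all tested probe sets. Of the 13, 7 were higher and 6 lower, beside 4.06% and 3.65% of all. Arrays did not overlap for 15 members (27.3%), beside 15.7% of all. The higher ones at an unadjusted p under 0.05 were PTPRS on 3 probe sets, PTPRD, PTPRM, DUSP7 and PTPN18, and the lower ones PTPN1 on 2 probe sets, PTPN4 on 2, PTPRR and PTPN6. This comparison shares the progesterone arrays with that of progesterone against placebo, so the same 3 arrays enter both, with opposite sign. Members picked for a change against placebo therefore tend to show the reverse sign here, and the reversal is no separate result. The values side by side were 0.84 and −0.62 for PTPN1 40137_at, 1.54 and −1.20 for PTPN4 1460_g_at, −0.60 and 0.66 for PTPRD 33910_at, and −0.50 and 0.46 for DUSP7 39932_at. Not all were of like size, with 0.44 and −0.01 for PTPN3 1458_at and −0.66 and 0.27 for PTPRK.

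Whether the hormones added up was measured by their interaction, which uses the same arrays again. It was −0.74 ± 0.25 for PTPN1 40137_at, −2.01 ± 0.48 for PTPN4 1460_g_at, 1.40 ± 0.44 for PTPRS 32289_at and 0.60 ± 0.22 for DUSP7 39932_at. None passed (limma adjusted p = 0.923, 0.669, 0.922 and 0.923). There were 11 members of 55 at an unadjusted p under 0.05 and 0 past the threshold, against 4.99% and 0.0% of all tested probe sets. The 11 became 7 without progesterone array 3. Limma's F test over the 4 groups gave 0 past the threshold and 11 at an unadjusted p under 0.05, against 0.0531% and 5.79% of all, and 6 without progesterone array 2 or progesterone array 3.

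Both hormones against estrogen gave 0 members past the threshold and 3 at an unadjusted p under 0.05 (PTPN6, PTPN18 and DUSP14), against 0.0% and 2.87% of all tested probe sets. Arrays did not overlap for 3 members, beside 6.74% of all. The count became 5 without estrogen plus progesterone array 1 and 1 without estrogen plus progesterone array 3. Both hormones against placebo had 6 members without overlap, beside 8.92% of all, of which PTPN3 had an unadjusted p under 0.05. That single count was 0 without placebo array 3, estrogen array 2, estrogen plus progesterone array 3 or progesterone array 3, and 2 without placebo array 1 or estrogen plus progesterone array 2.

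**Figure D5:**
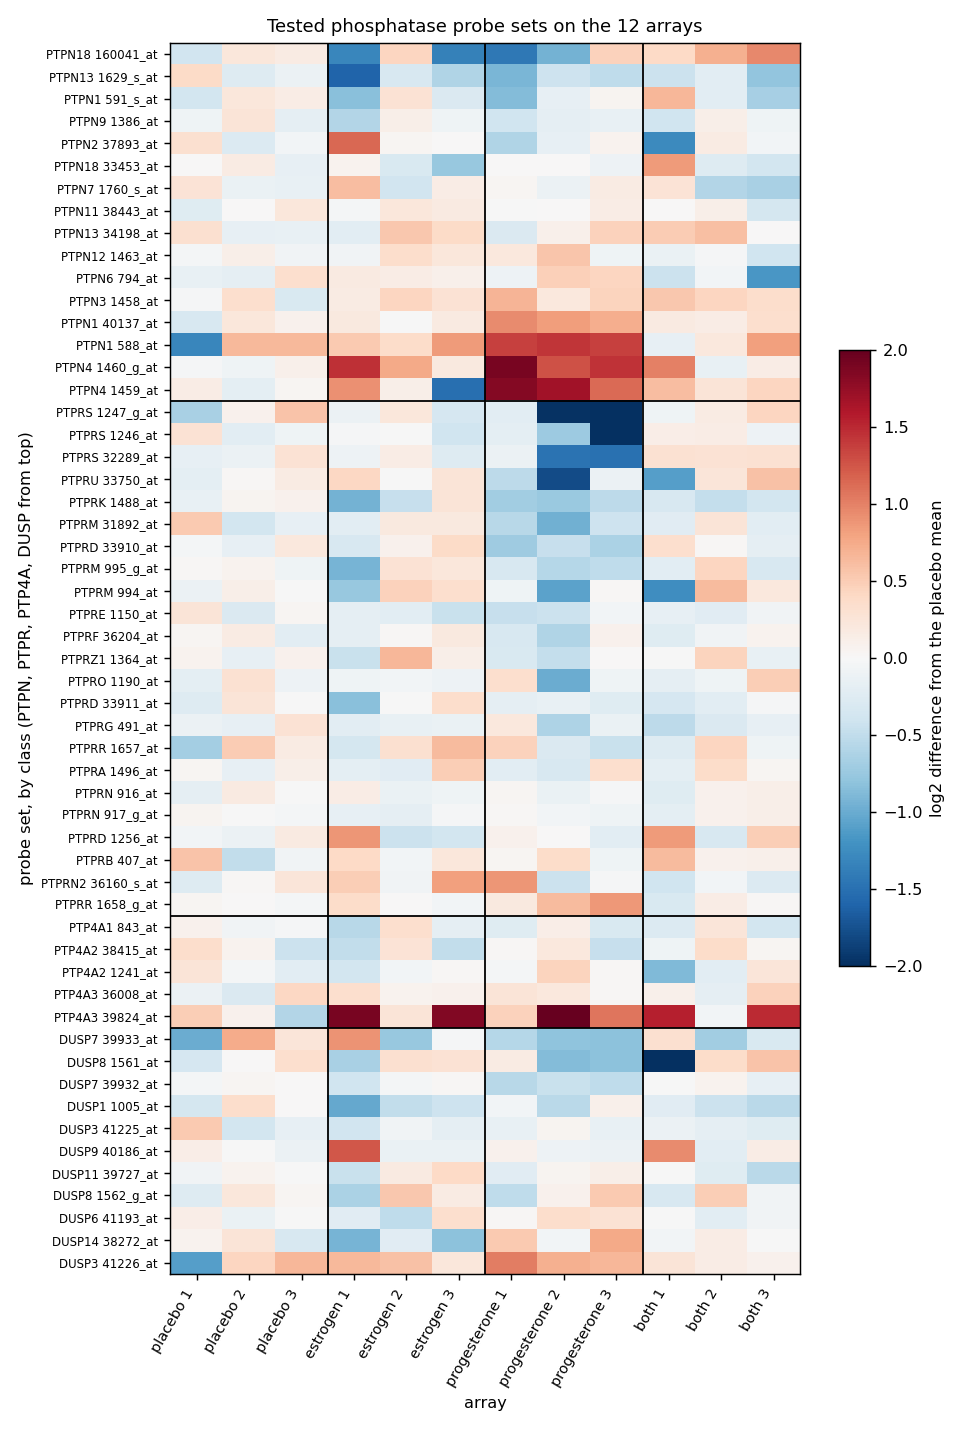
Log2 difference from the placebo mean (colour, cut at −2 and 2) of the 55 tested phosphatase probe sets (rows, by class and by change with progesterone) on the 12 arrays (columns). PTPN1 and PTPN4 are red on the 3 progesterone arrays but for PTPN1 591_s_at, and the PTPRS rows are dark blue on progesterone array 3, as are 2 of 3 on array 2.

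Probe sets of the same gene did not always share a sign. Of 14 genes with 2 or more tested probe sets, 8 had the same sign on all of them with progesterone, 6 with estrogen and 6 with both hormones. PTPN4, PTPRS, PTPRM and DUSP7 were among those of 1 sign with progesterone, and PTPN1, PTPRR and DUSP3 were not.

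The 24 members that were too dim to be tested had medians over the 12 arrays between 2.35 and 53.1. They left 9 genes without a tested probe set: PTPN14, PTPN20, PTPN21, PTPN22, PTPRH, DUSP2, DUSP4, DUSP5 and DUSP10.

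Genes that act with the phosphatases were counted from lists of known substrates and partners, and none passed limma's adjusted threshold in a comparison with placebo. With progesterone the list counts below stand beside 8.24% of all tested probe sets at an unadjusted p under 0.05. The count of the MAP kinases, 2 of 21, was close to this share and came from 1 gene, and the other counts were below it. Of 21 tested probe sets of MAP kinases and their kinases, 2 had an unadjusted p under 0.05 with progesterone, both for the neuronal JNK gene MAPK10 and both higher (0.53 and 0.49). Of 25 probe sets of insulin, leptin and JAK-STAT signalling, 1 did, the adaptor GRB2 (0.58). Among Src kinases and their regulators 1 of 13 did, YES1 (0.62). Among ligands and partners of receptor phosphatases 2 of 25 did, the adhesion protein CNTN1 (−0.55) and midkine, MDK (−0.68), a ligand of PTPRZ1. Other tyrosine and dual-specificity phosphatases gave 1 of 16, MTMR9 (0.42), and serine and threonine phosphatases 1 of 32, PPM1B (−0.62). The medians of these 6 lists with progesterone lay between −0.06 and 0.18.

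Cell type markers differed in both directions on the progesterone arrays, and none passed limma's adjusted threshold. The 9 serotonin neuron markers summed to 1198 to 1406 on the progesterone arrays, below the 1453 to 1868 of the other 9 arrays. Of their 11 tested probe sets 1 was above 0, with a median of −0.45, and SLC6A4, GATA2 and GATA3 gave −0.58, −0.62 and −0.62 on probe sets with an unadjusted p under 0.05. The 9 astrocyte markers summed to 7204 to 7522 with progesterone and 4748 to 8112 with placebo, where the low end comes with an SLC1A2 reading of 293 on placebo array 1 against 3990 and 4244 on the other placebo arrays. Of 10 tested astrocyte probe sets 6 were above 0, with a median of 0.10, while 3 (SOX9, FGFR3 and GFAP) had lower values at an unadjusted p under 0.05. The 11 microglia and leukocyte markers summed to 2036 to 2299 with progesterone and 1708 to 2133 with placebo. Of their 10 tested probe sets 7 were above 0, with a median of 0.26, 1 was higher at an unadjusted p under 0.05 (the monocyte receptor CD14, 1.20) and 1 was lower (the microglial receptor CX3CR1, −0.52). The 7 measured oligodendrocyte markers summed to 18290 to 25331 with progesterone and 17102 to 20418 with placebo, and the 8 neuron markers to 30922 to 33172 and 27966 to 32075. Their probe sets showed no common direction with progesterone. For oligodendrocytes 4 of 9 tested probe sets were above 0, with a median of −0.03. For neurons 5 of 10 were, with a median of −0.01. Among the markers of these 5 types ITGAM alone had a median under the offset. The part of cell makeup in the phosphatase values was not tested.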

How the data were processed

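The authors deposited linear intensities, 1 for each probe set and array, with array medians from 74.2 to 87.1. How the arrays were scaled was not tested. The method that summarised the probes is not given in the sources used here. Gene symbols came from the platform annotation, and all 46 member symbols are also in the macaque RefSeq gene table. Array controls (67) were left out. The deposited intensities became log2(intensity + 8.26), the offset being the pooled 10th percentile, and were quantile normalised, since array medians spanned 0.21 on the log2 scale. The lowest 40% of probe sets by mean (5023) were left out, which left 7535. Group means were fitted over all 12 arrays with limma (version 3.58.1, R 4.3.3), with 2-sided tests, Benjamini-Hochberg adjustment over the 7535 and a threshold of 0.05. The fit was tested on simulated data.

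The named members were every probe set of PTPN1 and PTPN4, those with an unadjusted p under 0.05 and no overlap between the groups compared on the normalised scale, the other probe sets of those genes, and a fixed set known from brain or hormone signalling. Further members are given where a count names them, chosen after their values were seen. Members and lists were chosen with earlier results of these data known. Replicates are separate monkeys, so errors cover animal and array together, and 3 arrays a group limit the precision. Replicate numbers are shared between groups. Deviations of same-numbered estrogen and both-hormone arrays correlated at 0.407, 0.296 and 0.133, all over 0.1, so these groups were also fitted as pairs. The pair at 0.407 is the 2 arrays of high ribosomal signal. Estrogen array 3 and both-hormone array 2, of unlike number, correlated at 0.207. These correlations therefore cannot settle whether the monkeys were paired. For the other groups at least 1 same-numbered pair was below 0.1.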

Additional observations from a re-analysis of the deposited data

How the results depend on the processing

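Across the alternatives (12 with 1 array left out and 9 to 11 others per comparison) no phosphatase probe set passed the adjusted threshold, with 2 exceptions. For progesterone against placebo the count went from 0 to 1 (PTPN4) without both arrays of high ribosomal signal. For both hormones against progesterone it lay between 0 and 1 when single arrays were left out, with 1 (PTPRS) without progesterone array 1. None of the named members with separated groups, nor PTPN1 591_s_at, changed sign in these alternatives. With the replicate block the counts past the threshold stayed 0 in all comparisons, and the paired fit of the estrogen and both-hormone arrays alone, chosen after seeing the data, also gave 0, with 4 members at an unadjusted p under 0.05 in place of 3. Those at an unadjusted p under 0.05 for progesterone against placebo numbered 12 with the block. They numbered 20 with no filter, where all 79 members are tested, and 10 with the lowest 60% left out, where fewer are. For both hormones against progesterone they numbered 8 with the lowest 60% left out, where fewer probe sets are tested, and 18 with array weights. With array weights they numbered 3 for estrogen against placebo and 5 for both hormones against placebo, and the latter was 0 with the replicate block. With the lowest 60% left out they numbered 2 for estrogen against placebo, 0 for both hormones against estrogen, 6 for the interaction and 7 for the F test. With 3 arrays a group and many probe sets near background, small differences in dim members were not detectable.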
